A study of Mus musculus with 6 samples.

Results

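Antioxidant and glutathione genes encode the enzymes that remove superoxide, hydrogen peroxide and lipid peroxides, restore oxidised thiols, conjugate reactive compounds to glutathione and keep iron in a safe store. The list held 41 genes, chosen by symbol and not by a rule on their values, though earlier results of these data were known. A row of the signal table, which spells names in capitals such as SOD2, GPX1 and FTL1, was taken for a member when its name was the current or an older symbol of that gene. Of the 41 members, 40 had a row, and 35 had a signal above background, out of 10321 genes above background and 28888 genes in all.

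All samples were LT-HSC, long-term blood-forming stem cells, taken from bone marrow of male mice of the strain labelled C56 Bl/6, 2 months old. Sex steroid ablation (SSA) withdraws the sex hormones, and the controls had a sham ablation. Each group had 3 arrays, and both were taken at 2 days. The labels name neither the way SSA was done nor the animals behind an array, and a pool is possible, so the spread that a p-value measures here may be technical.

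Superoxide made by the respiratory chain and by oxidases is turned into hydrogen peroxide by superoxide dismutases. Catalase, peroxiredoxins and glutathione peroxidases then reduce the peroxide, and the last of these draw on thioredoxin and glutathione, which are restored with NADPH. The transcription factor NRF2, encoded by Nfe2l2 and held back by Keap1, drives many of these genes when oxidants rise. LT-HSC are known for low levels of reactive oxygen species, and loss of this control is known to push mouse stem cells out of quiescence.

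Signal was read on Illumina mouse BeadChips and is given here as log2 of the normalised, background-corrected signal plus an offset of 16, so differences of dim genes are understated. A gene counted as above background when its raw signal exceeded the background mean by 3 SD of the background on at least 3 of the 6 arrays. That threshold lay between 150.7 and 165.8 raw units. Arrays correlated with each other at 0.945 to 0.987 on the log2 scale. Sham 2 stood apart from the other arrays on the first principal component, at 41.7 against -24.1 to 10.02 on the rest, and sham 1 lay among the SSA arrays at -17.4. In a bulk measurement, fewer cells of a type and less RNA per cell cannot be told apart.

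**Figure D1:**
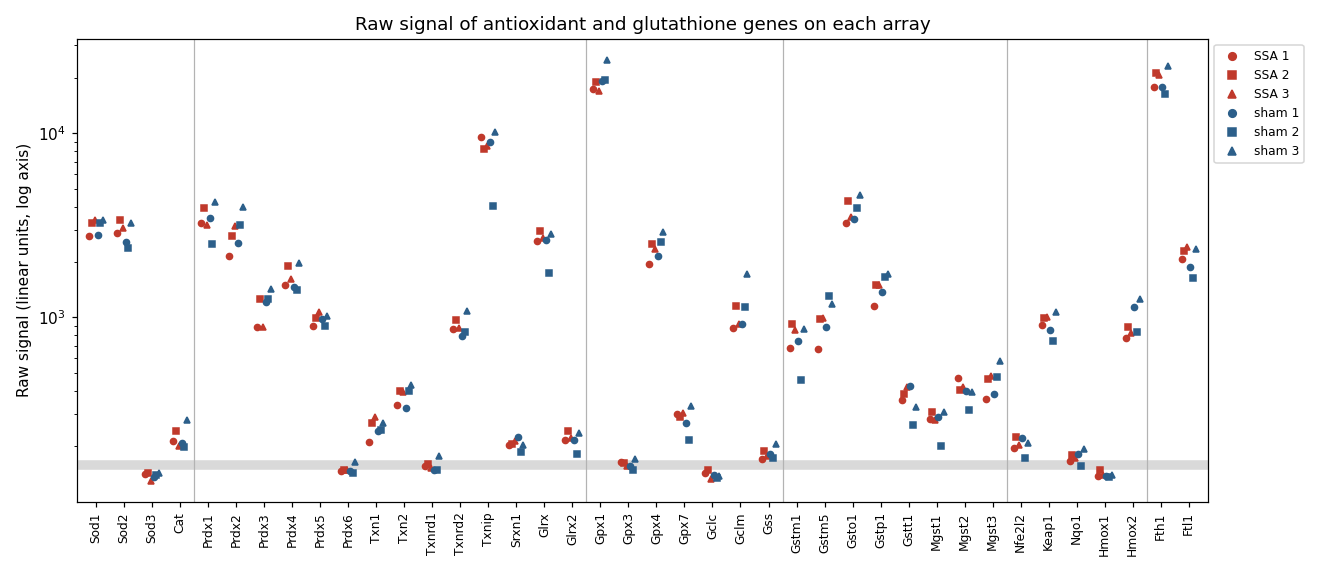
Raw signal (linear units, log axis) of the 40 members with a row, by system, with SSA arrays in red and sham arrays in blue. The grey band marks the thresholds of the 6 arrays, from 150.7 to 165.8, and Sod3, Prdx6, Txnrd1, Gclc and Hmox1 have most or all of their points in or below it.

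Of the members, 5 were not above background. Sod3, the extracellular superoxide dismutase, read 130.2 to 144.0 raw units across the arrays. Gclc, the catalytic subunit of the enzyme that starts glutathione synthesis, read 133.2 to 149.1, and Hmox1, the inducible heme oxygenase, read 135.7 to 148.1. Hmox1 and Gclc are textbook NRF2 targets, and neither crossed the threshold on any array of either group. Prdx6 read 143.1 to 165.1 on its row and crossed it on no array, and Txnrd1, the cytosolic thioredoxin reductase, read 147.8 to 178.0 and crossed it only on sham 3. The deposited detection score differed, with a detection p under 0.05 for Txnrd1 on 6 arrays and for Prdx6 on 3. A filter on that score kept both and dropped Txn1 and Ftl1. With it, 0 of 35 members had an unadjusted p under 0.05 in limma, against 8.48% of all genes. Gsr, glutathione reductase, was not analysed here. For the genes below threshold no difference between groups could be read at this signal.

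No antioxidant transcript was called different between SSA and sham, which does not show that the groups were alike. In limma none of the 35 members passed an adjusted p of 0.05, where 0.00969% of all genes tested did, which is 1 gene, the eosinophil ribonuclease gene Ear6 at -2.11 ± 0.18 (log2 fold change, SSA minus sham, ± SE). None reached an unadjusted p under 0.05 either, against 8.62% of all genes (4.90% higher and 3.72% lower after SSA). The largest difference in size was 1.36-fold and adjusted p values ran from 0.576 to 0.958. Of the 35 members, 22 had a value above 0 and 13 below, with a median log2 fold change of 0.089 beside 0.0099 over all genes, of which 51.6% were above 0. The 95% interval of a member's difference, not adjusted over genes, reached 0.30 to 0.67 on either side of its estimate. The intervals extended up to 1.04 for Gstt1 and down to -0.94 for Gstm5. A change of that size in log2 units could thus be missed even before adjustment. The adjusted p over all genes is stricter and missed larger differences, such as Ear2 at -2.10 ± 0.31 with an adjusted p of 0.398 in limma.

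The count at an unadjusted p depended on how limma pooled the spread. With a mean-variance trend, in which bright genes are judged against the spread of other bright genes, 6 members had an unadjusted p under 0.05, against 8.84% of all genes (5.07% higher and 3.77% lower). These were Gpx1, Sod2, Glrx, Ftl1, Hmox2 and Gstm1, at unadjusted limma p of 0.0124, 0.0229, 0.0318, 0.0343, 0.0467 and 0.0468. Their adjusted p was 0.555 in that fit. Without sham 1 the default fit had 6 such members, Gstt1, Gclm, Mgst1, Gstm1, Glrx and Mgst2, and none was called. They were 17.1% of the members, where 18.1% of all genes had such a p in that fit. With background by neqc, limma's standard correction for BeadChips, 6 members had an unadjusted p under 0.05, with Keap1 in place of Gstm1, against 8.25% of all genes (4.98% higher and 3.27% lower). That setting shrank the differences of 13 members by over 1.5 times, among them Glrx2, Gpx7, Gstt1, Mgst1 and Mgst2.

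In 9 of the 35 members (25.7%) the SSA and sham arrays did not overlap, against 14.8% of all genes. All SSA arrays lay above all sham arrays for Sod2, Glrx, Glrx2, Gstm1, Mgst1, Keap1 and Ftl1, against 8.62% of all genes in that direction. All SSA arrays lay below all sham arrays for Gpx1 and Hmox2, against 6.17% of all genes. The members were chosen as a list with results of these data known, so these shares describe the list and were not tested against the other genes.

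**Figure D2:**
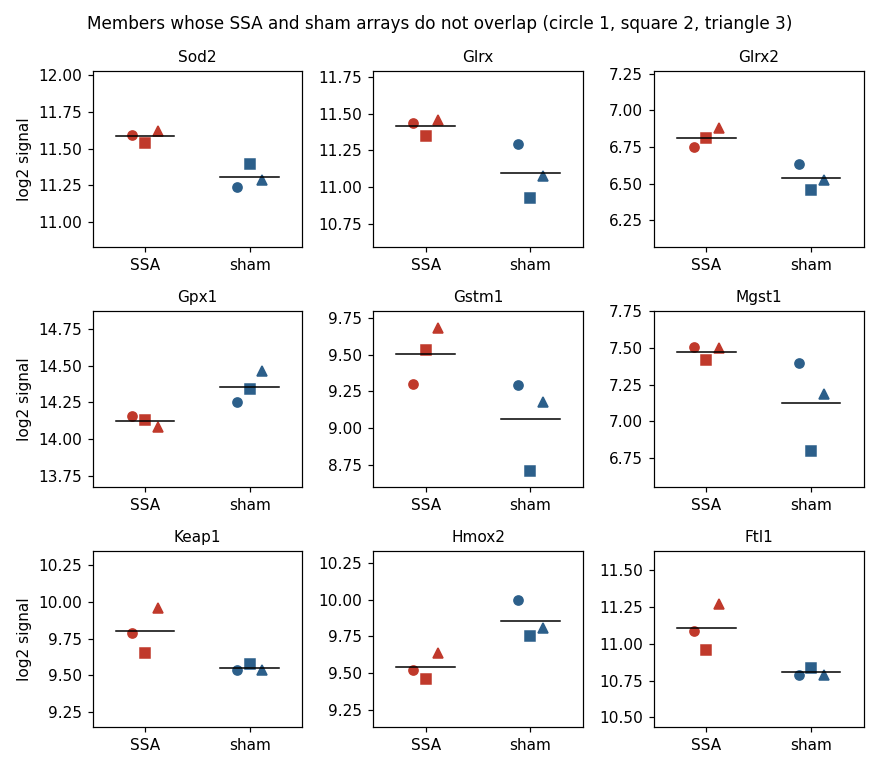
log2 signal of the 9 members whose SSA (red) and sham (blue) arrays did not overlap, with 1 point per array and a line at the group mean. Each panel spans the same range on the log2 scale. Gstm1 parts the groups by the narrowest margin, with SSA 1 at 9.30 and sham 1 at 9.29.

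Among the enzymes that act on superoxide, the mitochondrial dismutase Sod2 was higher on every SSA array. Its log2 signal was 11.59, 11.54 and 11.62 on SSA 1, 2 and 3 and 11.24, 11.40 and 11.29 on sham 1, 2 and 3. The lowest SSA array lay above the highest sham array by more than either group's SD of 0.041 and 0.081 (n = 3). The log2 fold change was 0.28 ± 0.13 (SE), with a 95% interval from -0.025 to 0.58 and an adjusted p of 0.577 in limma, so it did not pass. Leaving out any array in turn kept it between 0.25 and 0.32.

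The cytosolic copper-zinc dismutase Sod1 gave no such separation. It read 11.54, 11.50 and 11.77 in SSA 1, 2 and 3 against 11.38, 11.82 and 11.35 in sham 1, 2 and 3. Sham 2 was the highest array and sham 3 the lowest, so the groups overlapped. Its log2 fold change was 0.086 ± 0.18, and the difference between Sod1 and Sod2 was not tested. Catalase, Cat, which breaks down hydrogen peroxide in peroxisomes, stood at -0.044 ± 0.17 with overlapping groups.

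Of the peroxiredoxin and thioredoxin genes, 12 of 14 were above background, 10 with a value above 0 and 2 below, and the median log2 fold change was 0.11. The peroxiredoxins are abundant thiol peroxidases that differ in where they act. Cytosolic Prdx1 and Prdx2 stood at 0.12 ± 0.14 and -0.17 ± 0.20. Mitochondrial Prdx3 stood at -0.32 ± 0.17, Prdx4 of the endoplasmic reticulum at 0.14 ± 0.13 and Prdx5 at 0.13 ± 0.18. Both mitochondrial genes Prdx3 and Sod2 are measured here, and their values lie on opposite sides of 0.

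Prdx3 read 9.73, 10.03 and 9.75 in SSA 1, 2 and 3 against 10.09, 10.40 and 9.99 in sham 1, 2 and 3. The groups overlapped only through SSA 2, which lay above sham 3, and the adjusted p was 0.582 in limma. Prdx2, which is very abundant in red cells, read 11.78 on sham 2, its highest array, and 11.14 on SSA 1, its lowest. The summed signal of 11 erythroid markers above background had its extremes on the same arrays, 26572 on sham 2 and 6980 on SSA 1, in linear units. Bright genes weigh most in such a sum, and the brightest marker, Car1, read 13.89 on sham 2. Sham 2 was highest for 7 of the 11 markers, but not for Hba-a1, Hbb-b1, Car2 and Slc4a1. The members Prdx3, Gss, Gstm5 and Gstp1 were also highest on sham 2 and lowest on SSA 1. The part of erythroid cells in the Prdx2 values was not tested.

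Thioredoxins carry electrons to peroxiredoxins. Cytosolic Txn1 spread widely within a group, at 6.64, 7.11 and 7.60 on the SSA arrays, with an SD of 0.48 against 0.27 in sham (n = 3). Its log2 fold change of 0.056 ± 0.26 was within that spread. Mitochondrial Txn2 and its reductase Txnrd2 stood at 0.062 ± 0.23 and 0.093 ± 0.15, and Srxn1, sulfiredoxin, which revives over-oxidised peroxiredoxins, at 0.10 ± 0.22. The direction of Txn1 and Txn2 turned with a median shift per array in place of quantile normalisation, to -0.018 and -0.034.

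Txnip binds thioredoxin and restrains it, and it is known to keep mouse HSC quiescent. It read 13.35, 12.87 and 13.08 in SSA 1, 2 and 3 against 13.16, 12.11 and 13.03 in sham 1, 2 and 3. Sham 2 was low and the other sham arrays lay between the highest and lowest SSA arrays. The log2 fold change was 0.34 ± 0.29 with all arrays and 0.0061 without sham 2.

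Glutaredoxins are small thiol proteins that work with glutathione, and the family members differed in how far the groups parted. Outside the list, Glrx3 stood at 0.19 ± 0.14 and Glrx5 at 0.00035 ± 0.27, both with overlapping groups. Glrx, the cytosolic form, read 11.44, 11.35 and 11.46 in SSA 1, 2 and 3 against 11.29, 10.93 and 11.08 in sham 1, 2 and 3, a log2 fold change of 0.31 ± 0.15 with an adjusted p of 0.578 in limma. The table held a second row for this gene, under its current symbol, and the value above came from the brighter row under the older symbol Glrx1. The second row read 10.95, 10.98 and 11.21 in SSA 1, 2 and 3 against 11.02, 11.02 and 10.97 in sham 1, 2 and 3. There the groups overlapped and the means differed by 0.045, so the rows of Glrx did not show the same separation.

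Mitochondrial Glrx2 read 6.75, 6.81 and 6.88 in SSA 1, 2 and 3 against 6.63, 6.46 and 6.53 in sham 1, 2 and 3. The log2 fold change was 0.27 ± 0.13 with an adjusted p of 0.579 in limma. The signal was dim, and the beads alone gave a standard error of 0.16 to 0.24 on each array, close to the difference itself. With background by neqc the log2 fold change was 0.041.

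Among glutathione peroxidases and the enzymes that make glutathione, 6 of 8 were above background, 2 with a value above 0 and 4 below, with a median of -0.14. Gpx1, the cytosolic selenoenzyme that reduces hydrogen peroxide, was lower on every SSA array. It read 14.16, 14.13 and 14.08 in SSA 1, 2 and 3 against 14.25, 14.34 and 14.46 in sham 1, 2 and 3. The log2 fold change was -0.23 ± 0.13, with a 95% interval from -0.54 to 0.083 and an adjusted p of 0.610 in limma. Leaving out any array kept it between -0.28 and -0.18. The signal was far above background, and the beads gave a standard error of only 0.042 to 0.065 per array.

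Gpx4, which reduces lipid peroxides and guards against ferroptosis, stood at -0.089 ± 0.17 and read 11.50 on sham 2 against 10.99 to 11.24 on the other arrays. Without sham 2 its value was 0.060. Gpx7, a peroxidase of the endoplasmic reticulum, stood at 0.35 ± 0.18, or 0.095 with background by neqc, and SSA 2 at 7.26 lay below sham 3 at 7.35 while the other SSA arrays lay above all sham arrays. The plasma form Gpx3 stood at 0.089 ± 0.15 and was above threshold on 5 arrays.

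Gclm, the modifier subunit of the enzyme that starts glutathione synthesis, is an NRF2 target. It read 9.71, 9.90 and 9.81 in SSA 1, 2 and 3 against 9.65, 10.28 and 10.29 in sham 1, 2 and 3. Sham 2 and sham 3 were high while sham 1 lay below every SSA array, and the log2 fold change was -0.27 ± 0.20. Glutathione synthetase, Gss, stood at -0.18 ± 0.15.

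Glutathione transferases attach glutathione to reactive compounds, and all 8 were above background, 4 with a value above 0 and 4 below. Gstm1, a mu-class transferase, read 9.30, 9.53 and 9.68 in SSA 1, 2 and 3 against 9.29, 8.71 and 9.17 in sham 1, 2 and 3, a log2 fold change of 0.44 ± 0.20 with a 95% interval from -0.013 to 0.90 and an adjusted p of 0.576 in limma. Sham 2 was the lowest array, and without it the value was 0.27. The relative Gstm5 stood at -0.31 ± 0.27, with sham 2 at 10.46 as its highest array and SSA 1 at 9.28 as its lowest, and at -0.039 without sham 2. Mouse Gstm genes are close in sequence, as are Gstp1 and its neighbour copy, so which copy a probe reads is uncertain.

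The microsomal transferase Mgst1, a membrane enzyme that also reduces lipid peroxides, read 7.51, 7.42 and 7.501 in SSA 1, 2 and 3 against 7.40, 6.80 and 7.19 in sham 1, 2 and 3. Its log2 fold change was 0.35 ± 0.18, with an adjusted p of 0.582 in limma, and it was 0.18 without sham 2 and 0.081 with background by neqc. Mgst2 stood at 0.40 ± 0.19 and Gstt1 at 0.44 ± 0.26, both with overlapping groups, and at 0.21 and 0.17 with background by neqc. Leaving out an array moved Gstt1 between 0.26 and 0.72. Gstt1 read 7.52 and 7.32 on sham 2 and sham 3 and 7.94 to 8.42 on the other 4 arrays, sham 1 among them. Gsto1, a dehydroascorbate reductase, read 11.77, 11.91 and 11.83 in SSA 1, 2 and 3 against 11.71, 12.08 and 11.83 in sham 1, 2 and 3, with a log2 fold change of -0.037 ± 0.15. Gstp1 and Mgst3 stood at -0.12 ± 0.20 and -0.079 ± 0.23.

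**Figure D3:**
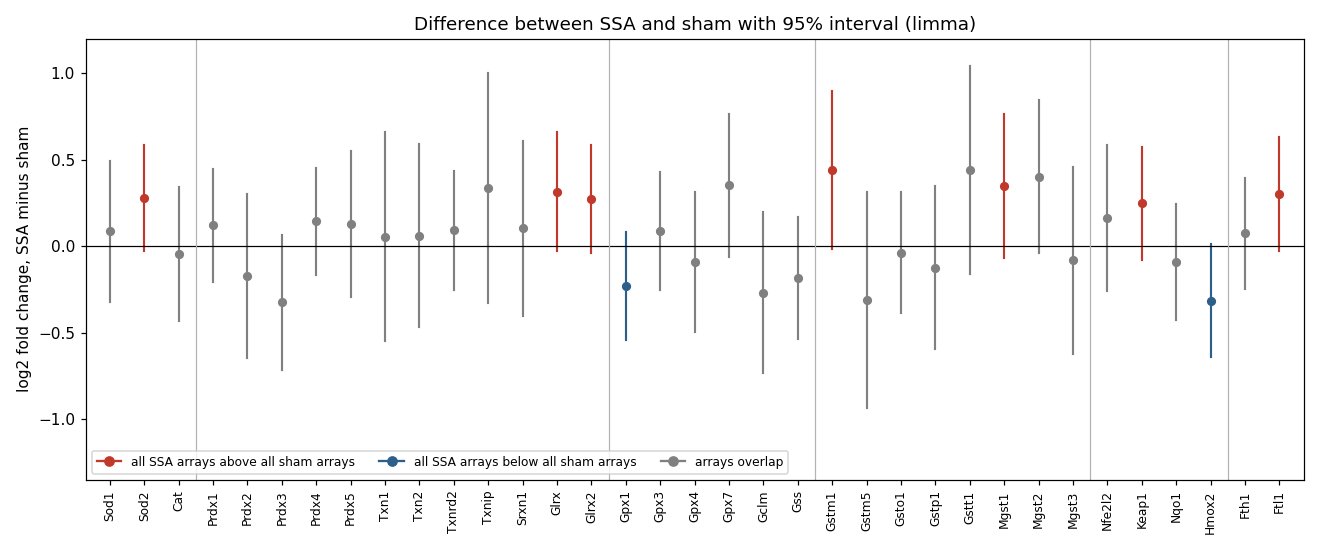
log2 fold change (SSA minus sham, points) and 95% interval (lines) of the 35 members above background, by system. Red and blue mark the 7 and 2 members whose arrays did not overlap. Every interval includes 0.

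Of the genes listed under the NRF2 pathway, Keap1 and the constitutive heme oxygenase Hmox2 parted the groups, while the inducible Hmox1 was below threshold. Keap1, the adaptor that sends NRF2 to degradation, read 9.79, 9.65 and 9.96 in SSA 1, 2 and 3 against 9.53, 9.58 and 9.53 in sham 1, 2 and 3. The sham arrays agreed within an SD of 0.027 and lay below all SSA arrays, and the log2 fold change was 0.25 ± 0.14 with an adjusted p of 0.597 in limma. Nfe2l2 itself stood at 0.17 ± 0.18, with sham 1 at 6.71 as its highest array and sham 3 at 6.15 as its lowest. The quinone reductase Nqo1, a classical NRF2 target, stood at -0.090 ± 0.14 on a dim signal of 157.0 to 192.7 raw units.

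Hmox2, the constitutive heme oxygenase, was lower on every SSA array. It read 9.52, 9.46 and 9.63 in SSA 1, 2 and 3 against 9.999, 9.75 and 9.81 in sham 1, 2 and 3. The log2 fold change was -0.31 ± 0.14, with a 95% interval from -0.64 to 0.013 and an adjusted p of 0.576 in limma, and it ran from -0.36 to -0.24 when an array was left out.

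Ferritin stores iron and so limits the iron that can turn peroxide into hydroxyl radicals. Ftl1, the light chain, read 11.09, 10.96 and 11.27 in SSA 1, 2 and 3 against 10.79, 10.84 and 10.79 in sham 1, 2 and 3. Every SSA array lay above every sham array, and the log2 fold change was 0.30 ± 0.14 with a 95% interval from -0.029 to 0.63 and an adjusted p of 0.578 in limma. The deposited detection score of this row was only 0.523 to 0.814 although its raw signal was 1647 to 2412, so a filter on that score would have dropped it. Fth1, the heavy chain, which carries the ferroxidase activity, read 14.20, 14.27 and 14.37 in SSA 1, 2 and 3 against 14.13, 14.14 and 14.34 in sham 1, 2 and 3. Its log2 fold change was 0.074 ± 0.14, with overlapping groups, and turned to -0.072 with array weights. Both ferritin genes have processed pseudogenes, which probes may not tell apart.

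**Figure D4:**
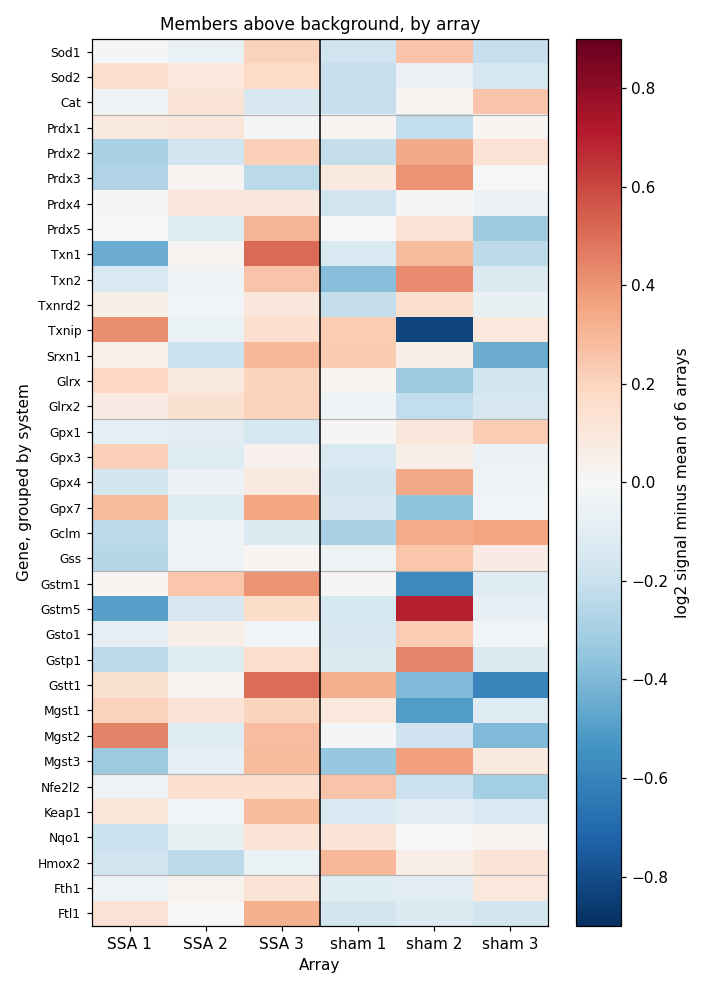
log2 signal of each of the 35 members minus its mean over the 6 arrays, in colour, with genes in rows by system and arrays in columns. Txnip on sham 2 is the strongest blue cell and Gstm5 on sham 2 the strongest red cell.

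Much of the spread among the members lay within the sham group. Sham 2 was the highest array for 11 of the 35 members and the lowest for 7, 18 in all, where it was at an extreme for 54.2% of all genes. The 11 were Sod1, Prdx2, Prdx3, Txn2, Txnrd2, Gpx4, Gss, Gstm5, Gsto1, Gstp1 and Mgst3, and the 7 were Prdx1, Txnip, Glrx, Glrx2, Gpx7, Gstm1 and Mgst1. The median of the members per array, relative to the mean of the 6 arrays, was -0.021, -0.028 and 0.17 on SSA 1, 2 and 3 and -0.13, 0.051 and -0.068 on sham 1, 2 and 3. SSA 3 was high and the other SSA arrays lay between the sham arrays. Without SSA 3 the median log2 fold change of the members was 0.018 and without sham 2 it was 0.14.

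Promoter sequence gives a further property that the list did not use. The antioxidant response element core, to which NRF2 with small MAF proteins binds, is spelled TGACNNNGC, and the AP-1 site is TGACTCA, which lies inside the element when its open bases are TCA. Both strands of the 250 bases before each annotated start were searched in RefSeq promoters of build GRCm38.p6, in which 36 members matched. Sod3, Prdx6, Gsr, Gclc and Hmox1 were not matched, so their promoters were not searched. The element core was found in 7 of the 36 members (19.4%) and in 11.5% of 27025 genes. The AP-1 site was found in 6 of the 36 (16.7%) and in 5.16% of all genes, a difference that was not tested. Genes with several starts had more windows to search.

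Excerpts of the searched windows, 59 to 89 bases around the site, are given for the 6 members that carry the element core and were above background. They are printed 5′ to 3′ on the strand of the gene, to show the sites whose genes' values can be set side by side. Capitals mark the element core, which is printed as its reverse complement where it lies on the opposite strand.
Sod1, chr16:90220666-90220754, plus strand: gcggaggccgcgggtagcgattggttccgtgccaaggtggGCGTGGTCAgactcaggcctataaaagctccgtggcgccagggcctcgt
Prdx1, chr4:116685426-116685514, plus strand: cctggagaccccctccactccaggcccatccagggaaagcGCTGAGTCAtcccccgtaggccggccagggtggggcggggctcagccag
Gclm, chr3:122245383-122245471, plus strand: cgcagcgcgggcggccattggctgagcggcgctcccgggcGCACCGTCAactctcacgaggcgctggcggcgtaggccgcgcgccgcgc
Gstm5, chr3:107895772-107895853, plus strand: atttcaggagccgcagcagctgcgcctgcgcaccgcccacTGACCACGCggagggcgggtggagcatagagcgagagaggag
Mgst1, chr6:138140431-138140519, plus strand: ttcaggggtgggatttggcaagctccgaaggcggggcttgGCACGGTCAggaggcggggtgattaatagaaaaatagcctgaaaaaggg
Nfe2l2, chr2:75704855-75704913, minus strand: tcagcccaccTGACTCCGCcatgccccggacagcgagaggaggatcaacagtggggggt

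The element lay 56 to 48 bases before the start in Sod1 and in Mgst1, 133 to 125 in Prdx1, 134 to 126 in Gclm, 42 to 34 in Gstm5 and 240 to 232 in Nfe2l2. Only in Prdx1 did an AP-1 site overlap it. The carriers lay on both sides of 0. Log2 fold changes were 0.35 for Mgst1, 0.17 for Nfe2l2, 0.12 for Prdx1 and 0.086 for Sod1, but -0.27 for Gclm and -0.31 for Gstm5. None passed limma, at adjusted p from 0.582 to 0.897. The remaining carrier, Txnrd1, was below threshold. Of the genes with an AP-1 site, Mgst2, Glrx, Prdx1 and Srxn1 stood above 0, and Gstp1 and Gstm5 below.

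Other genes of the same pathways, taken from lists, gave no call in limma either. Over all genes 8.62% had an unadjusted p under 0.05 in that fit (4.90% higher after SSA), and the counts in these lists stand beside that share. Of 17 further glutathione enzymes and transporters above background, 2 had an unadjusted p under 0.05, both higher after SSA. These were Gsta4, which conjugates lipid peroxidation products, at 0.53 ± 0.18, and Gstt2 at 0.49 ± 0.19, each at an adjusted p of 0.556. With background by neqc they fell to 0.081 and 0.20. Gstm2 stood at 0.57 ± 0.26, and at 0.76 with background by neqc. Slc7a11, which imports cystine for glutathione synthesis, was not above background. Of 13 further thioredoxin-fold and methionine sulfoxide enzymes, 1 had an unadjusted p under 0.05, Txndc15 at 0.39 ± 0.16, with Nxn at 0.32 ± 0.17 and Txndc11 at -0.30 ± 0.16 next by p. With background by neqc Txndc15, Nxn and Txndc11 stood at 0.51, 0.070 and -0.021.

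Bach1, the heme-sensitive repressor that competes with NRF2 at the same elements, was higher on every SSA array. The SSA mean was 7.11 ± 0.24 and the sham mean 6.37 ± 0.56 (SD, n = 3 each), a log2 fold change of 0.75 ± 0.28 with an adjusted p of 0.556 in limma. Sham 2 was its lowest array at 5.74, and the value was 0.43 without it and 0.11 with background by neqc. It was the only 1 of 9 further NRF2 regulators with an unadjusted p under 0.05. Its small MAF partner Mafg stood at 0.52 ± 0.28, and Sqstm1, which draws Keap1 into autophagy, at -0.25 ± 0.18.

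Of 14 further genes of iron and heme handling, 11 had a value below 0, with a median of -0.16. Sham 2 was the highest array for 8 of the 14. Without it Slc40a1 moved from -0.46 to -0.030. Slc11a2 and Blvrb turned from -0.17 and -0.15 to 0.31 and 0.33, and the others kept their sign. The mitochondrial iron importer Slc25a37 stood at -0.42 ± 0.16 and was the only member of that list with an unadjusted p under 0.05, at an adjusted p of 0.556 in limma. Ireb2, an iron-regulatory protein that controls ferritin and transferrin receptor messages, stood at -0.36 ± 0.17, and the transferrin receptor Tfrc at -0.73 ± 0.37. With background by neqc Slc25a37, Ireb2 and Tfrc stood at -0.28, -0.080 and -0.87. Without sham 2 they stood at -0.48, -0.31 and -0.46. Erythroid markers lay on the same side, with 11 of 11 below 0, a median of -0.56 and none at an unadjusted p under 0.05. Their summed signal was 6980 to 16221 on the SSA arrays and 12311 to 26572 on the sham arrays. Sham 2 was the highest array for 7 of the 11 markers on that list. Without it Klf1 and Ermap turned to 0.30 and 0.032, and the others stayed below 0. Alas2 and Epb42 of that list were not above background. The part of erythroid cells in the iron values was not tested, and Tfrc is itself on that marker list.

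Genes that supply NADPH, the reducing power of both thiol systems, had a median of -0.0071 over 9 genes, and none had an unadjusted p under 0.05. G6pdx, the entry enzyme of the pentose phosphate pathway, stood at -0.41 ± 0.29, Me2 at -0.37 ± 0.31 and Pgls at 0.17 ± 0.17. Sham 2 was the highest array of G6pdx and Me2, at 8.93 and 8.31. Without it G6pdx, Me2 and Pgls stood at -0.095, -0.016 and 0.23. Of 12 genes of selenoprotein synthesis and other selenoproteins, none had an unadjusted p under 0.05, with Sephs2, which makes the selenium donor, at -0.33 ± 0.15, Selenom at 0.48 ± 0.25 and Sepsecs at -0.36 ± 0.22. With background by neqc Sephs2, Selenom and Sepsecs stood at -0.087, 0.091 and -0.022. Gpx1, Gpx4 and Txnrd2 are selenoproteins too.

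Of the sources of oxidants, 7 of 16 were above background, and Cybb, the catalytic subunit of the phagocyte oxidase, was not. Noxo1, an organiser of NADPH oxidase, stood at 0.39 ± 0.14, myeloperoxidase, Mpo, at -0.55 ± 0.21, and the GTPase gene Rac1 at -0.38 ± 0.21. With background by neqc Noxo1, Mpo and Rac1 stood at 0.039, -0.59 and -0.18. Noxo1 and Mpo had an unadjusted p under 0.05 in limma and an adjusted p of 0.556. Mpo is also on the neutrophil and monocyte marker list, whose median was -0.89. Cebpe, on that list at -0.89, passed the filter only through its sham arrays.

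Of the marker lists of the cells a sort could hold, only the eosinophil list held a gene that passed limma, Ear6. The 5 eosinophil genes above background did not overlap between the groups and all lay lower after SSA, against 6.17% of all genes. Prg3 read 4.80, 4.39 and 4.74 on SSA 1, 2 and 3, below threshold, and passed the filter only through its sham arrays. Its separation in that direction followed from the filter. Ear6 too was below threshold on SSA 1 and SSA 2, at 5.21 and 5.15. The log2 fold changes of Ear6, Ear2, Prg3 and Epx were -2.11, -2.10, -1.05 and -0.90. With background by neqc they shrank to -0.28, -0.82, -0.063 and -0.076, while Prg2 went from -1.89 to -2.20. The summed signal of the 5 genes was 349 to 1371 in SSA and 2752 to 3556 in sham, and Ear10 and Il5ra were not above background. Of 12 neutrophil and monocyte genes 11 were below 0, with sums of 16330 to 17971 in SSA and 18136 to 26762 in sham, and Mmp8 was not above background. Cebpe of that list read 5.41, 5.15 and 5.23 on SSA 1, 2 and 3, below threshold. It passed the filter only through its sham arrays, so its direction followed from the filter. The median of that list per array, relative to the mean of the 6 arrays, overlapped, at -1.67, -0.18 and 0.31 in SSA 1, 2 and 3 against 1.53, 1.00 and -1.11 in sham 1, 2 and 3. Markers of HSC summed to 15770 to 16419 in SSA and 11260 to 15531 in sham, with 7 of 9 above 0, while Procr, Hlf and Fgd5 of that list were not above background. Their medians per array also overlapped, at 0.24, 0.14 and 0.083 in SSA against 0.14, -0.34 and -0.38 in sham, and the stem cell factor receptor Kit lay lower on every SSA array, at -0.31 ± 0.14 with no call. Of 9 macrophage markers, cells rich in Hmox1 and ferritin, only Spic was above background, at 0.23 ± 0.15. The sums of the 5 basophil and mast cell genes were 1088 to 1150 in SSA and 1324 to 1604 in sham, and Gzmb, Ms4a2, Cma1 and Tpsb2 were not above background. Of these 5 genes 4 were below 0, and Mcpt8 stood at 0.10 ± 0.16. Only Hdc lay lower on every SSA array, at -0.77 ± 0.18 with no call, while Cpa3, Fcer1a, Prss34 and Mcpt8 overlapped between the groups. Of the other lists, 7 of 9 megakaryocyte, 3 of 9 B cell, 3 of 9 T and NK cell and 3 of 10 endothelial and stromal genes were above background, with medians of 0.045, 0.42, -0.10 and -0.26. The part of these cells in the values of Sod2, Gpx1, Hmox2, Ftl1 and the other members was not tested.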

How the data were processed

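The authors deposited linear intensity values per gene and array, exported by GenomeStudio 1.8.0 from MouseWG-6 version 2.0 BeadChips with no normalization, per the file headers. They also deposited a detection score per row, read here as 1 minus a detection p, and, per the file headers, the number of beads and their SD. The series matrix equalled the raw intensity minus 1 constant per array within 0.1, with medians of 5.7 to 7.2, and served as an alternative. The table held 12 further columns that were not used. Row names were matched to symbols through the RefSeq gene table.

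Background mean and SD per array came from the signals at scores of 0.45 to 0.55 and 0.8 to 0.88 (means 126.1 to 137.6, SD 8.0 to 9.4), where neqc estimated means of 168.0 to 204.2 and SD of 194.9 to 302.7. Normexp correction, an offset of 16, quantile normalisation and log2 followed. Where rows shared a gene, the brightest was used. SSA was compared with sham by limma 3.58.1 in R 4.3.3, two-sided, with Benjamini-Hochberg adjustment over all genes. The code was also run on simulated data, with independent noise on every array and changes larger than that of any member. That run gives no power or error rate for differences as small as those here. All log2 values were computed here from the deposited intensity.

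The members, lists, settings and the rule for named genes were chosen with earlier results of these data known. The rule named all members, gave every array for members whose groups did not overlap and for the brightest member of each system, and gave up to 3 genes of smallest p per further list. The labels do not say whether replicate numbers pair the arrays, and the main setting used no pairing. No header names the slide of an array, and SSA column numbers precede sham numbers, so an order effect cannot be told apart from SSA. For arrays, their number limits the precision.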

Additional observations from a re-analysis of the deposited data

How the results depend on the processing

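The sign of 23 of the 35 members held in all 20 other settings, and that of Gpx3 and Ftl1 in the 19 that kept them. Of the settings 18 were planned, and 2, the mean-variance trend and gene-by-gene array weights, were added after the data were examined. The number of genes called by limma, 1 in the main setting, was 0 with background by neqc, no background correction, the filter on all 6 arrays, no filter or an unmoderated test, 4 with a median shift, with gene-by-gene array weights or with a replicate block, and 0 to 3 without 1 array. Members called numbered 0 in each setting but 1: default array weights called 1878 genes and 6 members (Glrx, Gpx1, Gclm, Gstt1, Mgst2 and Hmox2), but that estimate did not converge and gave sham 3 a weight of 6.69. Members at an unadjusted p under 0.05, 0 in the main setting, numbered 14 with those weights (36.0% of all genes), 8 of 40 with no filter (7.15%), 7 with no background correction (9.09%) and 5 with an offset of 50 (9.04%). It was 6 with background by neqc (8.25%), the trend (8.84%), gene-by-gene weights (20.9%) or an unmoderated test (7.41%), and 1 with the filter on all 6 arrays (8.97%) or the mean of a gene's rows (8.71%). Without 1 array it was 0 to 6, with 6 reached without sham 1 (18.1%). With the replicate block it stayed at 0 (9.18%). Deviations of same-numbered arrays from their group means correlated at 0.43, -0.016 and -0.22. With 3 arrays per group these values cannot decide whether the numbers pair the arrays. The median of the members ran from 0.018 to 0.14. Values that changed sign were Txn1 (-0.018) and Txn2 (-0.034) with a median shift, Gsto1 (0.0022) and Fth1 (-0.072) with array weights, and Fth1 (-0.029) with gene-by-gene weights. Without 1 array the ranges that crossed 0 were -0.16 to 0.072 for Cat, -0.0013 to 0.23 for Prdx5, -0.18 to 0.29 for Txn1, -0.12 to 0.29 for Txn2, -0.090 to 0.25 for Srxn1, -0.20 to 0.060 for Gpx4, -0.12 to 0.065 for Gsto1, -0.23 to 0.065 for Gstp1 and -0.27 to 0.085 for Mgst3. The cause was not tested.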
